A study of Caenorhabditis elegans with 6 samples.

Results

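The genes cct-1 to cct-8 of *C. elegans* encode the subunits of the cytosolic chaperonin, also called TRiC or CCT. The members were chosen by gene name, and every spot on the arrays that carries the sequence name of one of these genes was taken. Of the 8 genes, 7 had a spot, with 9 spots in all among 22490 gene spots for 18889 genes. Enough unmarked arrays for a test were available for 6 of them (cct-1, cct-2, cct-3, cct-5, cct-7 and cct-8) among 7989 genes tested. cct-4 was not above background, and cct-6 was not analysed here because none of the spots carries its sequence name. By RefSeq's annotation of the WBcel235 assembly, cct-1 to cct-4 lie on chromosome II, cct-5 and cct-6 on III, cct-8 on IV and cct-7 on V.

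The chaperonin is a barrel of stacked rings in which each ring holds the 8 different subunits side by side. It closes over an unfolded protein, hydrolyses ATP and releases the protein in its folded form. Actins and tubulins are its best known substrates, and many of them are handed over by the co-chaperone prefoldin. Since each subunit has its own place in the ring, the chaperonin needs all of them, and in the worm loss of subunits is known to disturb early development and the microtubules.

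Worms treated with the low dose mixture (LDM) were grown on agar with Chlorpyrifos (CPF) at 0.5 mg/ml and Diazinon (DZN) at 1 mg/ml per the labels, while the methods give the same figures per litre. Control worms were grown at the same time on agar with acetone, the solvent of both pesticides. Both groups were whole worms of the wild type strain N2, fed E. coli OP50 and kept for 72 h at 16 °C from synchronised eggs, and both were collected in the L3 to L4 stage. The question was how the transcription of genes responds to the combination of both pesticides. Each of 6 arrays with 2 colours carried RNA of treated worms and of control worms, and each sample pooled worms of several dishes. LDM was labelled with Cy5 on 3 arrays (Cy5 arrays 1 to 3) and with Cy3 on the other 3 (Cy3 arrays 1 to 3), numbered by replicate. In RNA of whole worms, fewer cells of a type and less RNA per cell cannot be told apart.

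Some properties of the arrays bear on every value given here. The image software gave every spot a code that the files do not explain, and spots with code 3 were read here as unmarked from their signal. Above background in both channels were 99.8% of gene spots with code 3, 62.8% of those with code 4 and 0.398% of those with code 1. By this reading 37.6 to 41.9% of gene spots were unmarked on the Cy5 arrays and 56.5 to 61.4% on the Cy3 arrays. Over all unmarked gene spots, Cy5 arrays 2 and 3 had ratios that correlated negatively (r = -0.35), although the labels give both arrays the same direction. The scanner headers of Cy5 array 3 and Cy3 array 1 carry the same tag for the control extract, so that their control channels may not be independent. Yolk genes, which are transcribed in the adult intestine, stood below 0 on 5 arrays (medians of 5 tested genes from -2.93 to -0.72) and above 0 on Cy3 array 3 (2.44). Above background in both channels on at least 1 array were 7 of 8 markers of muscle and 14 of 14 of the germ line. So were 10 of 10 of oocytes, 9 of 15 of sperm and 6 of 6 yolk genes. On single arrays 59.0 to 77.8% of all gene spots were above background in both channels, so that these counts say little about tissues. Of the oocyte markers 3 were tested and of the sperm markers 5.

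The spots of the chaperonin genes were grouped into 3 classes of brightness, which overlap in part in the plot of intensities. Those of cct-1, cct-2, cct-3 and cct-7 and 1 of the 3 spots of cct-5 were unmarked and above background in both channels on all 6 arrays. The spot of cct-8 was dimmer, with intensities of 258 to 1487 over a local background of 151 to 166, and was unmarked on 5 arrays. Its range overlapped that of the bright cct-5 spot (1027 to 19148). The spot of cct-4, the delta subunit, and the other two of cct-5 stayed near background and were marked on all 6 arrays.

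**Figure D1:**
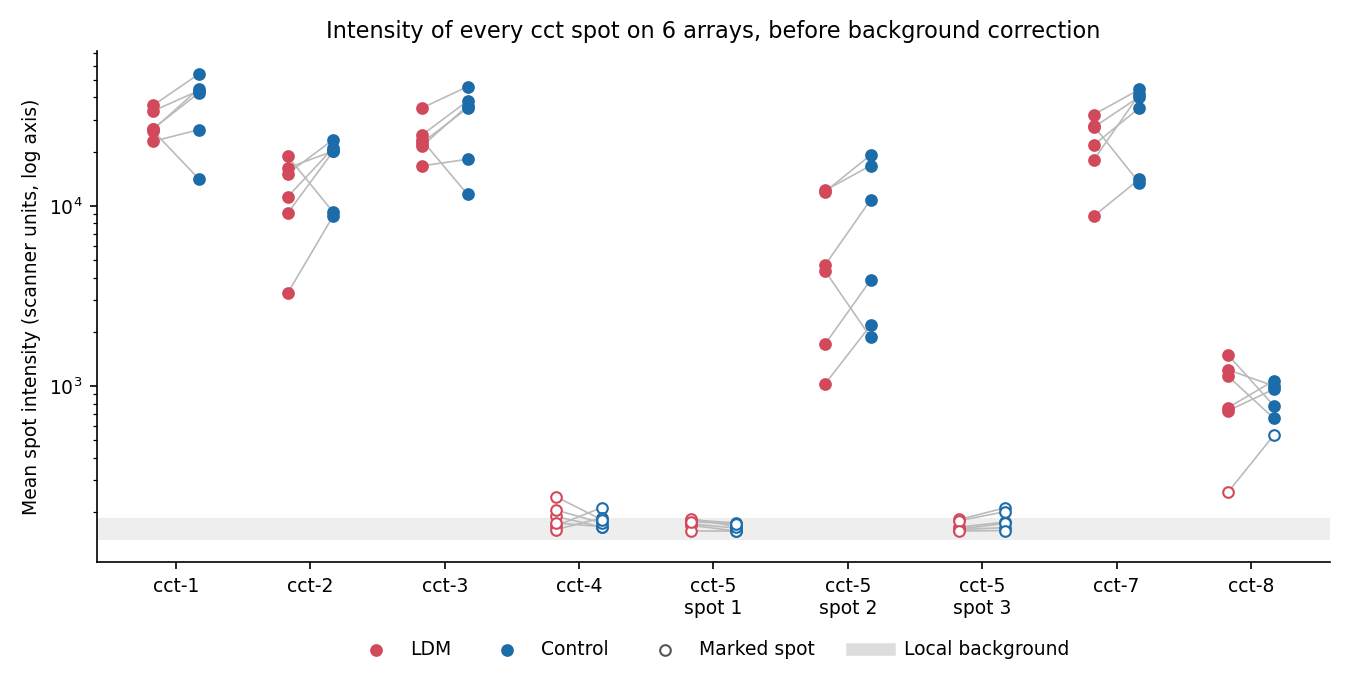
Mean scanner intensity (log axis) of each cct spot on 6 arrays, with LDM on the left and control on the right of each pair. Grey lines join the channels of 1 array, open circles are spots marked by the image software, and the grey band is the range of local background. The spots of cct-4 and 2 of the 3 spots of cct-5 lie at or just over the band. cct-8 (258 to 1487) lies above them, and its range overlaps that of the bright cct-5 spot (1027 to 19148).

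cct-1 (T05C12.7), the alpha subunit, encodes the founding member of the family, known in mammals as TCP1. Its normalized log2 level had a lowest, median and highest value of 14.63, 14.87 and 15.54 in LDM worms and of 14.41, 14.97 and 15.39 in control worms, so that the ranges overlapped. The log2 ratio of LDM over control was -0.18, 0.22 and -0.57 on Cy5 arrays 1, 2 and 3, and 0.16, 0.13 and -0.01 on Cy3 arrays 1, 2 and 3. It lay above 0 on 3 of 6 arrays. The fitted log2 ratio was -0.04 (SE 0.14, 95% confidence interval -0.36 to 0.28, limma adjusted p = 0.960), which is within the spread between arrays. On Cy5 array 1 only, 7.5% of the pixels of this spot in LDM and 3.8% in control were at the scanner's ceiling.

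cct-2 (T21B10.7) encodes the beta subunit. Its log2 level was 12.95, 13.46 and 14.33 in LDM worms and 13.10, 13.68 and 14.25 in control worms (lowest, median and highest). The log2 ratios ran from -0.79 on Cy5 array 1 to 0.47 on Cy5 array 2, and the remaining 4 were -0.61 on Cy5 array 3 and 0.11, 0.18 and -0.22 on Cy3 arrays 1, 2 and 3. It was above 0 on 3 of 6 arrays, and arrays of the same orientation lay on both sides. The fitted log2 ratio was -0.15 (SE 0.18, interval -0.57 to 0.28, limma adjusted p = 0.860), the lowest of the 6 genes.

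cct-3 (F54A3.3), the gamma subunit, had the smallest SD over arrays of the 6 genes. It had log2 levels of 14.43, 14.64 and 14.98 in LDM worms and of 14.17, 14.56 and 15.14 in control worms. Its log2 ratios were 0.09, 0.38 and -0.40 on Cy5 arrays 1, 2 and 3 and 0.10, 0.11 and -0.09 on Cy3 arrays 1, 2 and 3, above 0 on 4 of 6 arrays. This SD of 0.26 was smaller than the median of all genes (0.42), and the fitted log2 ratio was 0.03 (SE 0.14, interval -0.29 to 0.35, limma adjusted p = 0.975).

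cct-5 encodes the epsilon subunit and is the only member with several spots. The spot named for C07G2.3a gave log2 levels of 11.43, 12.29 and 13.24 in LDM worms and of 11.89, 12.28 and 13.19 in control worms. Its log2 ratios were -0.51, 0.85 and -0.43 on Cy5 arrays 1, 2 and 3 and 0.05, 0.02 and -0.50 on Cy3 arrays 1, 2 and 3. The value of 0.85 on Cy5 array 2 was the highest of any of the 5 bright genes on any array. With 3 arrays on each side of 0, the fitted log2 ratio was -0.09 (SE 0.20, interval -0.56 to 0.39, limma adjusted p = 0.943). The other two spots, both named for C07G2.3b, had intensities of 157 to 184 and of 157 to 211 over local backgrounds of 151 to 161 and of 142 to 160. A single channel passed the background limit there, that of control worms on Cy3 array 1 for one of the pair, and no ratio can be read from them. The spot of cct-4 (K01C8.10) was of the same kind, at 160 to 243 over 152 to 175, and above background in 0 of 6 arrays in LDM and 0 of 6 in control.

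cct-7 (T10B5.5), the eta subunit, had log2 levels of 14.06, 14.58 and 15.03 in LDM worms and of 14.31, 14.61 and 15.26 in control worms. The log2 ratios were -0.25, 0.39 and -0.94 on Cy5 arrays 1, 2 and 3, but only 0.18, 0.04 and -0.03 on Cy3 arrays 1, 2 and 3. Its lowest ratio, -0.94 on Cy5 array 3, was also the lowest of all members on any array. The fitted log2 ratio was -0.10 (SE 0.18, interval -0.52 to 0.31, limma adjusted p = 0.908).

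cct-8 (Y55F3AR.3) encodes the theta subunit and had the highest fitted ratio of the members. Its log2 level on Cy5 arrays 1 and 2 was 10.93 and 11.17 in LDM worms, against 10.94 and 10.67 in control worms. On Cy3 arrays 1, 2 and 3 it was 8.66, 9.30 and 9.74 in LDM worms, against 8.35, 8.50 and 8.22 in control worms. These levels cannot be compared between orientations, because the gap arose in the normalization. Before it, the intensities in control worms were 1070 and 779 on Cy5 arrays 1 and 2. They were 960, 1002 and 663 on Cy3 arrays 1, 2 and 3. Within each orientation the level in LDM worms was higher on every unmarked array but Cy5 array 1, where the log2 ratio was -0.01. The ratios on the other 4 unmarked arrays were 0.50, 0.31, 0.80 and 1.53, with the highest on Cy3 array 3. On Cy5 array 3 the spot had code 4 and was left out as marked, although both channels were above background, at intensities of 258 in LDM and 533 in control, and its log2 ratio there would have been -0.25, or -0.85 with loess fitted over marked spots as well.

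The fitted log2 ratio of cct-8 was 0.56 (SE 0.21, interval 0.06 to 1.07), a fold of 1.48 (1.04 to 2.10). In limma its unadjusted p was 0.0339 and its adjusted p over all 7989 genes was 0.482, so that it did not pass. The rank product, the test named in the study's methods, placed it among the higher genes at an estimated percentage of false positives of 0.0438 (as a proportion, threshold 0.05). Its permuted values were pooled over genes measured on different numbers of arrays. A mean of ranks over 5 arrays, as for cct-8, spreads more widely than over 6, so that this value may be too low. The call by rank product was lost when any of the 4 arrays was left out that still allowed the gene to be tested. The values were 0.0749 without Cy5 array 3 and 0.0846, 0.291 and 0.392 without Cy3 arrays 1, 2 and 3. Cy5 array 3 held no unmarked value of cct-8. Leaving that array out therefore changed only the other genes ranked beside cct-8, with 6936 genes in all against 7989. It was also lost with the authors' ratios of the same unmarked spots (0.0893). The authors' log2 ratio of the marked spot, -0.76, was left out there too. With the marked spots of all genes kept, loess was refitted and 18889 genes were ranked. The value of cct-8 was then 0.192, with a fitted log2 ratio of 0.36. On the array with the highest ratio of cct-8, Cy3 array 3, the yolk genes also stood highest, and the part of this difference between the worms in the value of cct-8 was not tested.

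Over the 6 genes tested, 0 passed in limma as higher and 0 as lower at an adjusted p under 0.05, against 25 genes (0.313% of all tested) and 5 genes (0.0626%). At an unadjusted p under 0.05 in limma there was 1 of 6, cct-8, and 9.31% of all genes (351 higher and 393 lower). By rank product 1 of 6 was higher, where 1.31% of all genes were, and 0 of 6 lower, where 0.476% were. None of the 6 had its ratio on the same side of 0 on every unmarked array, which 6.5% of all genes had. The median fitted log2 ratio was -0.06 for the 6 genes and -0.03 for all genes tested. In this limma fit the intervals of cct-1 and cct-3 reached from a fold of 0.78 to 1.21 and from 0.82 to 1.28. These ends depend on the processing. With median centring the fitted log2 ratios of cct-1 and cct-3 were 0.14 and 0.17, against -0.04 and 0.03 here. For cct-2, cct-5 and cct-7 the intervals of the limma fit reached from a fold of 0.67 to 1.22, from 0.68 to 1.31 and from 0.70 to 1.24.

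**Figure D2:**
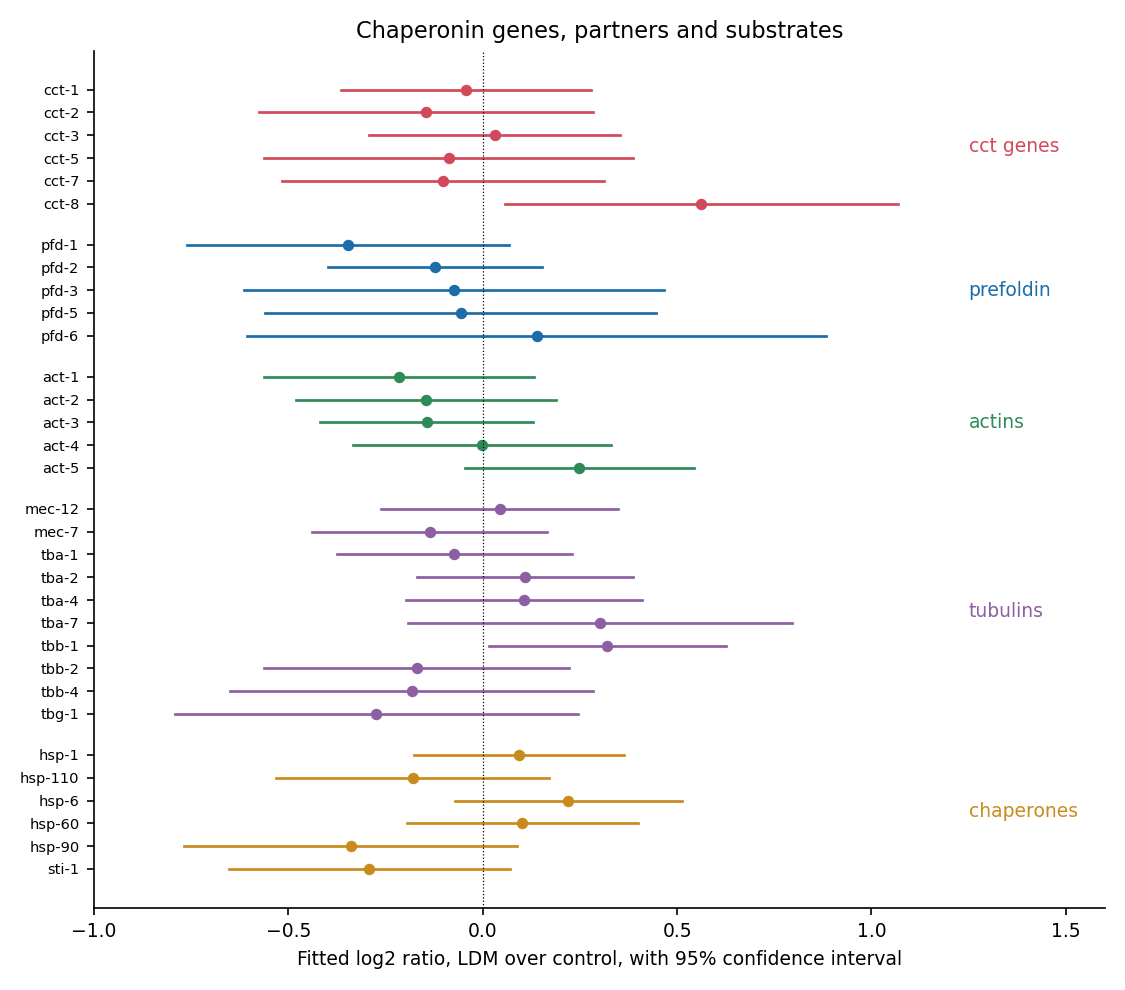
Fitted log2 ratio of LDM over control (points) with its 95% confidence interval (lines) from limma. Shown are the 6 tested cct genes and tested genes of prefoldin, actins, tubulins and other chaperones. Each fit used 6 arrays, except those of cct-8 and tba-7 with 5, where cct-8 lacked Cy5 array 3. Of the cct genes, cct-8 at 0.56 has the only interval that does not include 0, and its adjusted p of 0.482 does not pass.

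The dye effect of the same fit compares the orientations. Its adjusted p was under 0.05 for 0 of 6 members and for 0.025% of all genes, and its unadjusted p for 0 of 6 and 6.13%. The largest dye coefficient of the members was that of cct-8 (-0.32, SE 0.21, limma adjusted p = 0.872), which lay lower with LDM in Cy5. The bright genes differed between orientations in their spread. The SD of the 3 ratios with LDM in Cy5 was 0.39, 0.68, 0.39, 0.77 and 0.67 for cct-1, cct-2, cct-3, cct-5 and cct-7, while with LDM in Cy3 it was 0.09, 0.21, 0.11, 0.31 and 0.10. The ratios of all genes were also wider there, with an interquartile range of 0.61 to 1.03 on the Cy5 arrays and of 0.29 to 0.53 on the Cy3 arrays.

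Across arrays the ratios of the 5 bright genes varied together. All of them were above 0 on Cy5 array 2 and on Cy3 arrays 1 and 2, and all were below 0 on Cy5 array 3 and Cy3 array 3. On Cy5 array 1 only cct-3 was above 0. Their mean log2 ratio was -0.33, 0.46 and -0.59 on Cy5 arrays 1, 2 and 3, and 0.12, 0.10 and -0.17 on Cy3 arrays 1, 2 and 3. The means farthest from 0 were those of Cy5 arrays 2 and 3, whose ratios over all unmarked gene spots correlated negatively (r = -0.35). Correlations among the bright genes and with their mean therefore depend most on these arrays. The mean of the bright genes had an SD over arrays of 0.37. This was larger than the SD between the 5 genes within an array, which averaged 0.18 and was at most 0.34. The Pearson correlations of the 10 pairs of bright genes, over 6 arrays that share their RNA between genes, lay between 0.67 and 0.99 with a median of 0.81. The closest pair was cct-1 and cct-7 and the most distant cct-1 and cct-5.

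**Figure D3:**
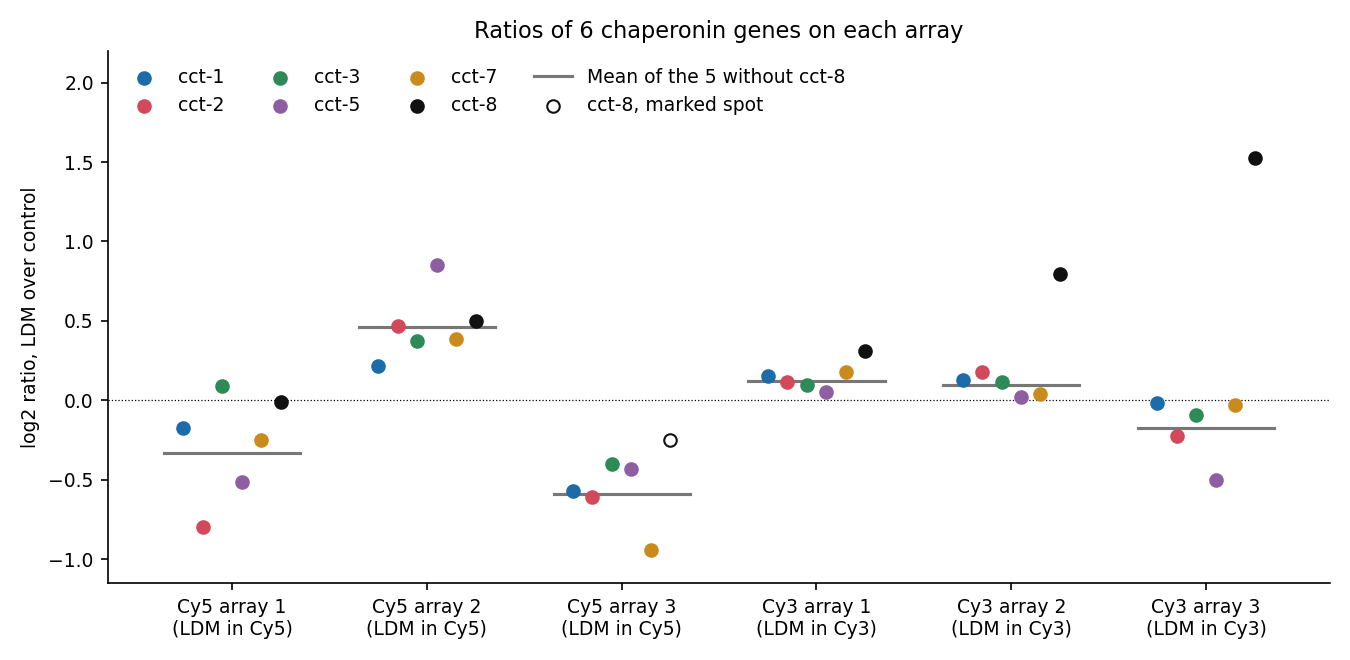
Log2 ratio of LDM over control of the 6 tested cct genes (points) on each of the 6 arrays, with the mean of cct-1, cct-2, cct-3, cct-5 and cct-7 as a grey line. The open circle is cct-8 on Cy5 array 3, where its spot was marked and left out. The mean lies between -0.59 and 0.46, and cct-8 lies above it by 0.04 to 1.70 on the 5 arrays where it was unmarked.

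The correlations of cct-8 with the 5 bright genes, over the 5 arrays where its spot was unmarked, lay between -0.50 and 0.21. Its ratio was above the mean of the 5 bright genes on each of these arrays, by 0.32 and 0.04 on Cy5 arrays 1 and 2 and by 0.19, 0.70 and 1.70 on Cy3 arrays 1, 2 and 3. The difference is a description, since cct-8 was singled out after its values were seen. The brightness of its spot, which is a property of the probe as well as of the gene, was at percentile 3.15 of the genes tested, while the spots of the 5 bright genes lay at percentiles from 65.1 to 97.1.

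Outside the family, the 5 genes with the highest correlation to the mean of the bright genes over the 6 arrays were znf-622, rin-1, hxk-2, ima-2 and H06I04.3, at r = 0.994 to 0.999. hxk-2 encodes a hexokinase and ima-2 an importin alpha of nuclear transport. None of the 5 passed in limma, with fitted log2 ratios from -0.37 for znf-622 to 0.10 for ima-2 and adjusted p from 0.720 to 0.983. Such a likeness was frequent, because 302 of 6481 genes measured on all 6 arrays (4.66%) had r above 0.9.

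Lists of other genes also varied over the arrays, as the plot of list medians shows. The 7 tested muscle genes had medians of -0.08, 0.47 and -0.74 on Cy5 arrays 1, 2 and 3 and of -0.07, 0.14 and -0.27 on Cy3 arrays 1, 2 and 3, and each correlated with the mean of the bright chaperonin genes at r = 0.54 to 0.94. The median correlation was 0.75 for 10 germ line genes, which ran from -0.89 to 0.95, 0.76 for 3 oocyte genes, 0.73 for 3 replication genes, 0.32 for 4 sperm genes and 0.11 for all 6481 genes. The 5 yolk genes had correlations from -0.31 to -0.03. The part of muscle, germ line or stage in the values of the chaperonin genes was not tested.

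**Figure D4:**
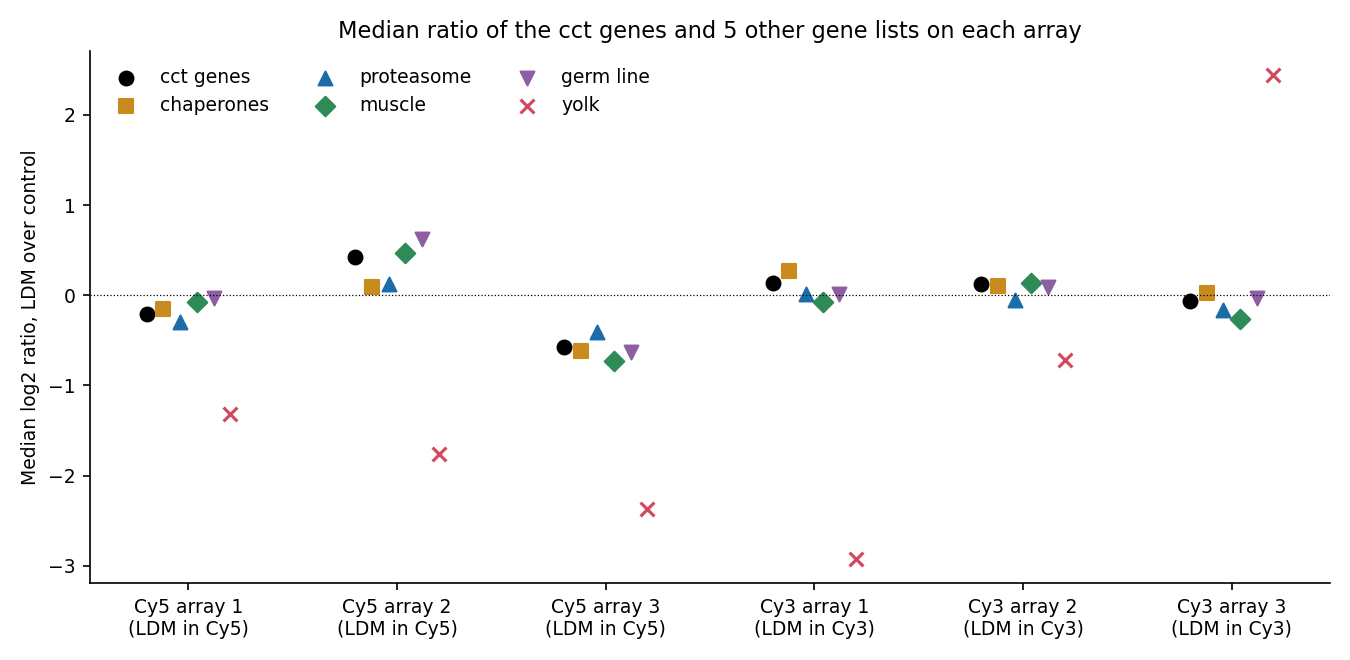
Median log2 ratio of LDM over control of the cct genes, other chaperones, proteasome subunits, muscle genes, germ line genes and yolk genes (points) on each of the 6 arrays. The cct genes, muscle and germ line genes lie together on Cy5 array 2 (0.43, 0.47 and 0.63) and on Cy5 array 3 (-0.57, -0.74 and -0.63). The yolk genes lie at -1.76 and -2.37 on these arrays.

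Prefoldin, the co-chaperone that binds nascent chains before the chaperonin, was represented by 5 tested genes of 6. In limma 0 were higher and 0 lower, and the median fitted log2 ratio was -0.07. The largest value was that of pfd-1 (-0.35, SE 0.18, limma adjusted p = 0.608), below 0 on 5 of 6 arrays, followed by pfd-6 (0.14, SE 0.32). The correlations of prefoldin genes with the mean of the bright chaperonin genes had a median of -0.45 and ran from -0.96 to 0.84, over the 6 arrays.

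Of the substrates, 5 of 5 actins and 10 of 16 tubulins were tested, and 0 passed in either direction in limma. The actins had a median fitted log2 ratio of -0.14. act-5, the actin of intestinal microvilli, gave 0.25 (SE 0.13, limma adjusted p = 0.606, above 0 on 5 of 6 arrays), and act-1, an actin of muscle, gave -0.21 (SE 0.15, limma adjusted p = 0.727). act-1 to act-4 are nearly identical in sequence, so that their spots may share signal. The correlations of the 5 actins with the mean of the bright chaperonin genes had a median of 0.79 and ran from -0.61 to 0.86. The tubulins had a median fitted log2 ratio of -0.01, and the largest values were those of the beta-tubulin tbb-1 (0.32, SE 0.13, limma unadjusted p = 0.0419 and adjusted p = 0.512, above 0 on 5 of 6 arrays) and the alpha-tubulin tba-7 (0.30, SE 0.21, limma adjusted p = 0.727, above 0 on 4 of the 5 arrays that measured it). For the 9 tubulins measured on all 6 arrays, the correlations had a median of -0.23 and ran from -0.68 to 0.95.

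Among 6 other chaperones, all tested, 0 were higher and 0 lower in limma, and the median was -0.04. hsp-90, the cytosolic partner of many signalling proteins, gave -0.34 (SE 0.18, limma adjusted p = 0.639), and its co-chaperone sti-1 gave -0.29 (SE 0.16, limma adjusted p = 0.63). hsp-6, the mitochondrial HSP70, gave 0.22 (SE 0.13). On Cy5 array 3 all 6 of these chaperones were below 0 (median -0.62), and on Cy3 array 1 all 6 were above 0 (0.27). Their correlations with the mean of the bright chaperonin genes had a median of 0.68 and ran from 0.07 to 0.89.

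Proteasome subunits, which belong to the machinery that degrades misfolded proteins, had 31 tested genes of 32. In limma 0 were higher and 0 lower. Below 0 were 26 of 31, with a median of -0.13, where 4407 of 7989 genes tested were below 0 with a median of -0.03. The values farthest from 0 were those of the core subunits pas-1 (-0.41, SE 0.23, limma adjusted p = 0.645) and pas-2 (-0.38, SE 0.15, limma unadjusted p = 0.0380 and adjusted p = 0.500, below 0 on 6 of 6 arrays). The correlations of the 31 genes with the mean of the bright chaperonin genes had a median of 0.70 and ran from -0.86 to 0.97.

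Of the marker lists, those of germ line (13 tested), oocyte (3), replication (6), muscle (7) and sperm (5) had medians of -0.07, -0.05, -0.01, -0.13 and -0.34, and 0 of their genes passed in either direction in limma or by rank product. Of the 5 tested yolk genes, which had a median of -1.09, 0 passed in limma and 4 were lower by rank product.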

How the data were processed

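For each spot the authors deposited the foreground and local background intensity in Cy3 and Cy5, neither background-subtracted nor normalized. The deposited scanner output also gives the percent of pixels above background by 2 SD and at the scanner's ceiling. The authors' deposited series table holds log2 ratios after loess and Aquantile in limma (version not given in the sources used here). Its columns correlate at 0.974 to 0.991 with LDM over control as recomputed here and have medians of -0.0079 to -0.00047. The image software's codes for spots are not explained in the files, and only spots with code 3, nearly all above background, were taken as unmarked.

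Ratios were recomputed in limma 3.58.1 (R 4.3.3) with normexp (offset 50), global loess over unmarked gene spots and Aquantile, and turned to LDM over control by the dyes in the labels. Levels are log2 intensities after these steps and the brightness of different probes says nothing of their genes' relative levels. A spot counted as above background when its intensity exceeded the local background by more than 2 background SD. Of 23232 spots, 742 were control or empty positions. Probes unmarked on fewer than 2 arrays of either orientation were not tested, which left 8860, and a gene was represented by its tested probe of highest mean intensity. The linear model had terms for LDM and for dye, with Benjamini-Hochberg adjustment over 7989 genes. The rank product was rewritten after the methods with 100 permutations. Both were tested on simulated data. With 6 arrays, their number limits the precision.

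Sequence names were matched to the RefSeq gene table of WBcel235 (95.1% of gene spots), and the names daf-21 and rpn-6 were updated to hsp-90 and rpn-6.1. The members and gene lists were chosen with earlier results of these data known. Named are all cct genes, the list genes farthest from 0 (hsp-6 was added after its value was seen) and the 5 genes most like the family. Alternatives were other background corrections, normalizations, filters, weights and model terms, the authors' ratios, and leaving out each array.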

Additional observations from a re-analysis of the deposited data

How the results depend on the processing

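In limma 0 chaperonin genes were called in either direction under each of 21 alternatives. By rank product 1 gene, cct-8, was higher. The fitted log2 ratio of cct-8 stayed above 0 in all 19 alternatives that could test it. It ran from 0.31 (sign turned on Cy5 array 2) to 0.82 (scaled ratios), with limma adjusted p from 0.0728 (array weights) to 0.999. Some of these alternatives could not move it, because cct-8 had 1 spot and no unmarked value on Cy5 array 3. It stayed at 0.56 with dim probes left out, with the mean of all probes, and with Cy5 array 3 left out or turned. Without Cy5 array 1 or 2 cct-8 could not be fitted. Its rank product value, under alternatives chosen after seeing the data, was 0.0480 with median centring and 0.0306 with plain background subtraction. It was 0.0476 with scaled ratios, 0.0682 with no background correction, 0.0893 with the authors' ratios of unmarked spots and 0.0926 with print-tip loess.

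Signs of the other genes, none of which passed, were less stable. cct-1 was at 0.14 with median centring, 0.054 with scaled ratios, 0.020 with the authors' ratios and 0.017 with marked spots kept. With print-tip loess cct-3 was at -0.016 and cct-5 at 0.031. When single arrays were left out the range was -0.14 to 0.057 for cct-1, -0.34 to -0.025 for cct-2, -0.058 to 0.14 for cct-3, -0.31 to 0.034 for cct-5 and -0.27 to 0.066 for cct-7, and that of the members' median was -0.27 to 0.06. The value of cct-2 was -0.34 without Cy5 array 2 (limma unadjusted p = 0.0320, adjusted p = 0.224) and -0.30 with array weights (0.0194 and 0.0825) or with Cy5 array 2 turned (0.0381 and 0.386). Turning the sign of Cy5 array 2, an alternative chosen after seeing the data, moved cct-3 to -0.10, and turning Cy5 array 3 moved cct-1, cct-2, cct-5 and cct-7 to 0.15, 0.058, 0.056 and 0.21. The cause was not tested.

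Over all genes, array weights called 573 higher and 835 lower, and leaving out single arrays called 5 to 43 higher and 0 to 16 lower. Turning Cy5 array 2 gave 2 higher and 0 lower, and turning Cy5 array 3 gave 0 and 0. A term for the date of image analysis, in which Cy3 array 1 alone differs from the rest, gives the same estimates as leaving that array out. Each called 6 higher and 1 lower, and a date effect cannot be told apart from that array. The lower count was 10 with scaled ratios and 3 with print-tip loess or marked spots kept. Arrays of the same replicate number deviated together only in part (r = -0.03, 0.41 and 0.23, with replicates 2 and 3 but not 1 correlating best with their own number). Deviations were taken from the mean of each orientation, so that the values of replicates 2 and 3 are not separate. Cy5 array 3 gave r = -0.41 with Cy3 array 2, and Cy5 array 2 gave -0.24 with Cy3 array 3. The replicate block, with a consensus correlation of 0.11, put cct-8 at 0.58 and called 21 genes higher and 3 lower.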
